A study of Mus musculus with 9 samples.

Results

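The comparison described here sets brain RNA of mice of the genotype labelled TG that were given NM-101 against brain RNA of TG mice given placebo. Its members were chosen by genotype and treatment label: 6 of the 9 libraries of the series, 3 TG placebo and 3 TG NM-101. The other 3 libraries, from wild-type (WT) mice given placebo, were deposited in another unit and stayed out of every test. Both groups carry the TG genotype, so neither shows what the genotype itself does. The labels give brain as the tissue and oligodendrocyte, the myelin-forming glial cell, as the cell type. They do not give the construct or promoter behind TG, the age of the mice, the dose or schedule of NM-101, or whether the 3 samples of a group came from separate animals. The p-values below therefore take in only how far these particular samples vary, and that variation may be technical.

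By its title, the series concerns a protein that comes from neurons and what it does in oligodendrocytes. An antibody against Toll-like receptor 2 has been developed under the name NM-101, although the labels give only the name. Toll-like receptor 2 pairs with Toll-like receptor 1 or 6 and signals through the adaptor Myd88 to NF-kB.

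The 6 columns were read as log2(FPKM + 1), where FPKM is fragments scaled by transcript length and sequencing depth. Each transcript's value was back-transformed, the transcripts of a gene were added up, and the sum was expressed as log2(value + 1). All levels below are on that scale and all differences are NM-101 minus placebo on it, which understates the change of genes with low values. A gene was tested where its mean over the 6 libraries was at least 1, and called where its limma p-value, adjusted by Benjamini-Hochberg over all 12699 genes tested, was under 0.05. Groups that do not overlap are those where every NM-101 value lies above, or every one below, every placebo value. With 3 against 3 no exact permutation test can fall below 0.1, so that second measure is a count and not a test.

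TG placebo replicate 1 stood apart from the other placebo libraries. In it, 497 genes lay more than 1 from the mean of the other 2 placebo libraries, against 95 and 138 for placebo replicates 2 and 3 and 43 to 56 for the NM-101 libraries. Its choroid plexus genes were high: the median of 12 tested members, taken as deviation from each gene's own mean, was 2.72 in this library and between -1.15 and 0.77 in the other 5. Its thalamic (0.84) and myelin (0.75) medians were the highest of the 6 libraries, and its median for nuclear-retained RNAs (-0.59) was the lowest. Values without this library are given beside many, but not all, of the results where leaving it out turned a sign or moved a value by much. Its part in the results was not tested. The libraries also held abundant neuronal transcripts under the label oligodendrocyte: Slc17a7, the vesicular glutamate transporter of cortical excitatory neurons, lay between 8.72 and 9.00, and Mbp, myelin basic protein, between 9.93 and 11.62. In such bulk RNA, fewer cells of a type and less RNA per cell cannot be told apart.

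Under NM-101, 13 genes were called higher and 4 lower. Those that rose were a metallothionein (Mt2), transcription factor genes of the POU and SOX families (Pou3f1 and Sox9), the actin-binding stress-induced gene Fam107a, the signalosome subunit gene Cops9, the G protein subunit gene Gng10, the ATP synthase subunit gene Atp5mpl, and 6 ribosomal protein genes or close relatives. The 13 were 0.102% of the genes tested and the 4 were 0.0315%. Those 4 were listed at 0 in all 3 NM-101 libraries, which may also mean that no estimate was made. They passed the filter on the mean through their placebo values alone, and their NM-101 values had no spread. Their p-values are therefore not read as evidence of a change. Differences of the 13 ran from 0.62 to 1.02. At an unadjusted p under 0.05 there were 1355 genes higher and 529 lower.

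**Figure D1:**
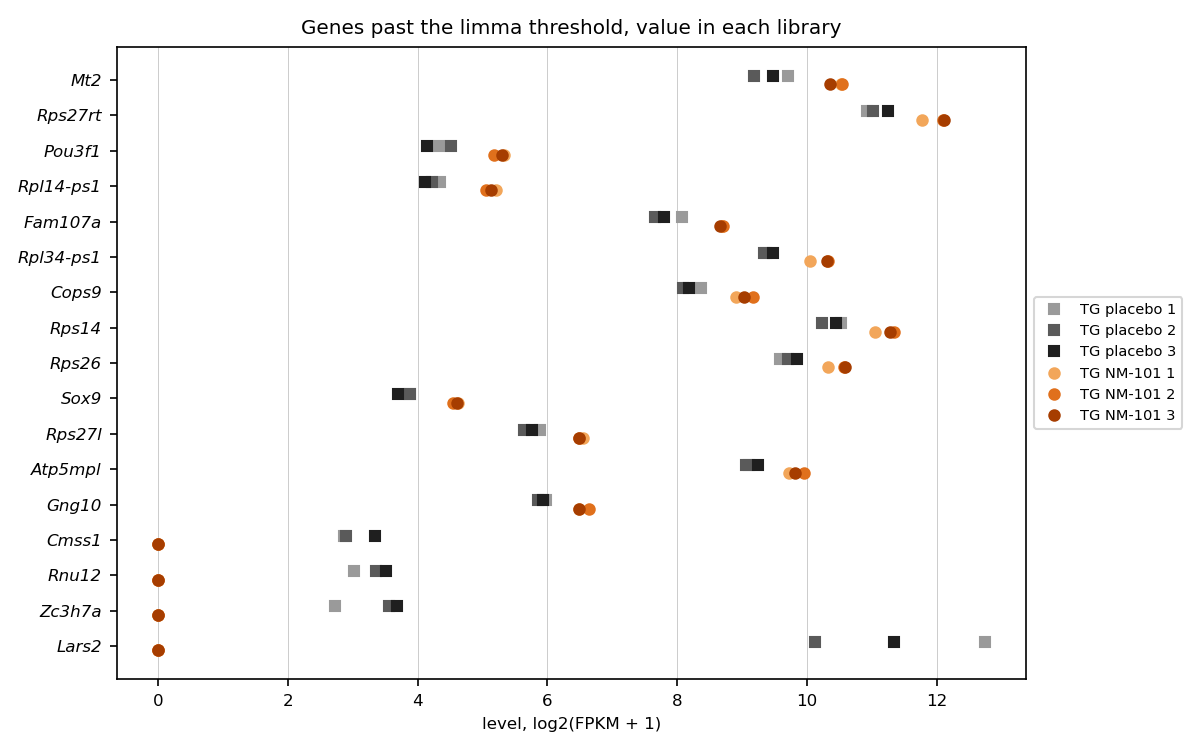
Level of each of the 17 genes past the limma threshold in each of the 6 libraries, on the log2(FPKM + 1) scale, with placebo as squares and NM-101 as circles. The 13 genes that rose have separate groups of points, and the other 4 sit at 0 in all 3 NM-101 libraries.

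These calls depended on the libraries, the scaling, the filter on low values and the variance model. With TG placebo replicate 1 left out, 1231 genes were called higher and 1038 lower, all 17 above among them. With any one of the other 5 libraries left out, between 2 and 5 genes were called in all. Median-ratio scaling, which divides each library by the median ratio of its genes to their mean, left 1 higher call, Rpl14-ps1, and 3 lower. With no filter on low values, or without trend and robust shrinkage, limma called 0 genes higher, against 1491 and 1230 at an unadjusted p under 0.05, and called the same 4 lower. Without genes at 0 in any sample it called 0 in either direction, where 1362 genes upward and 532 downward had an unadjusted p under 0.05. A minimum mean of 3 gave 43 higher calls, and sample weights gave 2470.

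Groups did not overlap for 1723 genes that were higher under NM-101 (13.6% of those tested) and for 760 that were lower (5.98%). Counts of separated members of a family or list are to be read beside these shares. Most of these separations were small: 2156 of the 2483 differences were under 0.5 in size and 18 were over 1. Of the genes that separated under each scaling, 69.4% were higher under NM-101 as deposited, 55.5% after median-ratio scaling and 56.9% after quantile normalization. The median difference over all genes tested was 0.0288.

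The direction of the separated genes moved with plain properties of the transcripts. Among the 286 genes with a mean level of 8 or more, 54.5% were higher in every NM-101 library and 2.45% lower, against 6.06% and 8.21% of the 2277 genes with a level between 1 and 2. Among the 528 genes whose transcripts had a GC content below 40%, 25.4% were higher and 1.70% lower, and among the 3303 genes at 55% or more the shares were 8.60% and 10.1%. Transcripts of 500 to 1000 bases gave 28.3% higher and 1.84% lower, those of 2000 to 4000 bases 10.2% and 7.98%, and those of 8000 or more 17.9% and 1.79%. GC-poor, short and abundant transcripts thus leaned toward NM-101. Summed over all transcripts on the linear scale, the deposited values came to 494042 to 660628 in NM-101 libraries and 435749 to 473933 in placebo libraries. The part of this gap in the shares above was not tested. For transcripts of 8000 bases or more the median difference of 0.06 was 0.00 without TG placebo replicate 1 and 0.20 against it alone. The part of RNA quality or library preparation in this was not tested.

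**Figure D2:**
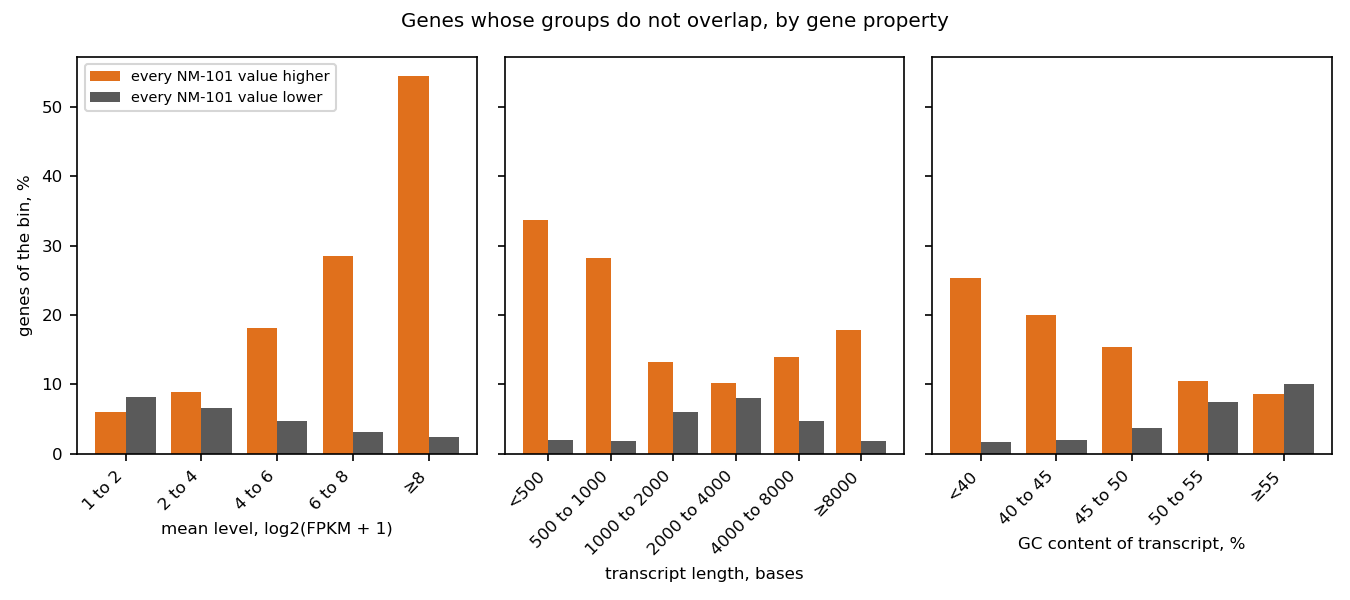
Share of genes in each bin whose 3 NM-101 values all lie above (orange) or all below (grey) the 3 placebo values, by mean level, transcript length and GC content. The share of higher genes climbs with level to 54.5% and declines with GC content to 8.60%.

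When each library was corrected for GC content and transcript length, an alternative chosen after seeing the data, 51.5% of the separated genes were higher. That fit called 3 genes higher, Rps14, Slc1a2 and Tmcc2, of which Rps14 was among the 13, and it called the same 4 genes lower. Pou3f1, Sox9 and Fam107a kept differences of 0.98, 0.75 and 0.84 in it, against 0.93, 0.77 and 0.84 before. Atp5mpl went from 0.69 to 0.22 and Rps27l from 0.74 to 0.36.

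As deposited, Mt2 was the called gene with the largest difference among those above 0 in both groups. Metallothioneins are small cysteine-rich proteins that bind zinc and copper; their genes are switched on by metals through the factor Mtf1 and also by glucocorticoids, and in brain Mt1 and Mt2 are made largely by astrocytes while Mt3 is the brain-enriched form. Mt2 (chromosome 8, 94172618 to 94173567) stood at 9.71, 9.18 and 9.47 in placebo and at 10.52, 10.53 and 10.35 in NM-101. Every NM-101 library lay above every placebo library, by a difference of 1.02 ± 0.14 (SE), which is 2.02-fold (limma adjusted p = 0.0439). The Mt2 difference was 0.68 after quantile normalization, where that of Pou3f1 was 0.87. After the GC and length correction it was 0.74 (limma adjusted p = 0.110), where that of Pou3f1 was 0.98.

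Mt1, its neighbour on the chromosome, stood at 10.56, 10.28 and 10.37 in placebo and at 11.15, 11.32 and 10.95 in NM-101. Its groups did not overlap either, but it missed the threshold (difference 0.73 ± 0.12, SE; limma adjusted p = 0.072). Mt3 had 10.30, 10.26 and 10.40 in placebo and 10.60, 10.85 and 10.48 in NM-101. That separation was narrower (0.32 ± 0.11, SE; limma adjusted p = 0.247), and the difference was -0.01 after quantile normalization. As deposited, all 3 tested members were thus higher in every NM-101 library, with a median of 0.73 that was 0.32 after quantile normalization and 0.50 after the GC and length correction.

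The upstream promoters of these neighbouring genes are shown because all 3 members separated in the same direction. Each line is the 250 bases before the start used in the promoter table, 5′ to 3′, from RefSeq on GRCm38.p6, plus strand: Mt1 at chr8:94178839-94179088, Mt2 at chr8:94172368-94172617 and Mt3 at chr8:94152357-94152606. For Mt2 and Mt3 the window ends 1 base before the gene's annotated span, whereas the Mt1 span, which also takes in a predicted transcript, begins at 94178883, inside the Mt1 window. Capitals mark the core of the metal response element, TGCACNC or TGCGCNC on either strand.
Mt1: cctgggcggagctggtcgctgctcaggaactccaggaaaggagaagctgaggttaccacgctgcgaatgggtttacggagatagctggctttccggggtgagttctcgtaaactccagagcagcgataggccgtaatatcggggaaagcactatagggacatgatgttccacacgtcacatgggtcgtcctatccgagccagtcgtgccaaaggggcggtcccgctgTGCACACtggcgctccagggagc
Mt2: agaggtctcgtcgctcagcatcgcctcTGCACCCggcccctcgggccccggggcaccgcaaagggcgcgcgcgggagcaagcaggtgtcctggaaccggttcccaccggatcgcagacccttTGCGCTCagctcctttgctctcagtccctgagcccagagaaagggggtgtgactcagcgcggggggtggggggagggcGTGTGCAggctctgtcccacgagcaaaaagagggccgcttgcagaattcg
Mt3: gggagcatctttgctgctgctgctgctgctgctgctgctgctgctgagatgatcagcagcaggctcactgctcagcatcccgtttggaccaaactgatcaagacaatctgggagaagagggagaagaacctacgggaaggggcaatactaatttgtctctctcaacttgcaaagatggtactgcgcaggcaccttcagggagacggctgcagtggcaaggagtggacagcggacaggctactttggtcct
The core was found 3 times in the window of Mt2, 1 time in that of Mt1 and 0 times in that of Mt3. Of 32851 promoters in the table, 21.4% held the core at least 1 time and 1.26% at least 3 times. The antioxidant response element, TGACNNNGC, was found 1 time in the Mt2 window and is held by 10.2% of promoters. The palindromic glucocorticoid response element was found in none of the 3 windows and in 0.0609% of all promoters. These are matches of letters and not measured binding. Bases outside the 250 of each window were not searched, so the counts do not rank these genes by their metal response elements.

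Of 16 tested genes of zinc handling, 7 were higher without overlap, Mt1, Mt2 and Mt3 among them, and 2 were lower, with a median of 0.19. That is 43.8% upward and 12.5% downward, beside 13.6% and 5.98% of all genes. Slc39a12, a zinc importer of astrocytes, had 4.30, 4.05 and 4.18 in placebo and 4.57, 4.45 and 4.58 in NM-101 (limma adjusted p = 0.181). Slc30a3, which loads zinc into glutamatergic vesicles, had 4.71, 5.44 and 5.57 in placebo and 4.65, 4.63 and 4.32 in NM-101. Its groups were separate, but TG placebo replicate 1 lay just above the highest NM-101 library, and the difference of -0.71 became -0.97 without that replicate.

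POU factors bind octamer DNA through paired POU domains, and the class III members act in neural progenitors, in upper-layer and hippocampal neurons and in myelinating glia. Pou3f1 (chromosome 4, 124657646 to 124660655) stood at 4.33, 4.52 and 4.15 in placebo and at 5.33, 5.17 and 5.30 in NM-101. The groups were well apart, with a difference of 0.93 ± 0.12 (SE), or 1.91-fold (limma adjusted p = 0.0425). Its difference was 0.94 against TG placebo replicate 1 alone and 0.93 without it.

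Of 6 tested POU genes, 4 were higher without overlap (66.7%, beside 13.6% of all genes), with a median of 0.51. Pou6f1 had 4.14, 4.08 and 3.72 in placebo and 4.58, 4.52 and 4.84 in NM-101 (limma adjusted p = 0.102). Pou3f2 had 1.77, 1.90 and 1.94 against 2.35, 2.33 and 2.48 (limma adjusted p = 0.145), and Pou3f3 had 4.45, 4.49 and 4.62 against 5.29, 4.77 and 5.01 (limma adjusted p = 0.156). None of these 3 passed the threshold. Pou3f4 lay under the filter, at 0.69, 0.74 and 0.79 in placebo and 1.32, 1.16 and 1.24 in NM-101, again without overlap. The POU median stayed between 0.45 and 0.59 under both scalings, the GC and length correction and each left-out library.

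SOX factors share an HMG-box domain; Sox9 specifies and maintains astrocytes, and Sox1, Sox2 and Sox21 mark neural progenitors. Sox9 (chromosome 11, 112782210 to 112787757) stood at 3.88, 3.89 and 3.70 in placebo and at 4.62, 4.54 and 4.61 in NM-101. The values within each group lay close together and the groups far apart (difference 0.77 ± 0.10, SE; limma adjusted p = 0.0425). Sox2 had 4.49, 4.59 and 4.58 against 5.28, 4.92 and 5.18 (limma adjusted p = 0.0881). Sox1 (0.36), Sox4 (0.37) and Sox21 (0.33) were also higher in every NM-101 library. Of 15 tested SOX genes 5 were higher without overlap (33.3%, beside 13.6% of all genes) and none lower. The other 10 overlapped, and the median of 0.19 was 0.03 without TG NM-101 replicate 1.

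Id proteins are helix-loop-helix factors without a DNA-binding domain that are induced by bone morphogenetic protein (BMP) signalling. Id3 had 5.34, 5.09 and 5.27 in placebo and 5.85, 5.79 and 5.75 in NM-101 (difference 0.57 ± 0.10, SE; limma adjusted p = 0.0746). Bmpr2, the type II BMP receptor, had 4.19, 4.06 and 4.15 against 4.54, 4.53 and 4.59, and Bmpr1b had 2.63, 2.58 and 2.63 against 3.11, 2.96 and 3.20. Neither receptor passed the threshold (limma adjusted p of 0.106 and 0.142), though both pairs of groups were separate. Of 23 tested BMP and TGF-beta genes 7 were higher without overlap and none lower (median 0.17), and of 20 tested Notch genes 7 were higher and none lower (median 0.20), against the 13.6% of all genes that separated upward. Id1, Id2, Id3 and Id4 stand in both lists, and the Notch list also holds Sox9, so the 2 counts share genes.

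Among neurotrophic factors and receptors, 4 of 19 were higher without overlap and none lower, or 21.1% upward beside 13.6% of all genes. Ntrk2, the receptor of brain-derived neurotrophic factor, had 6.21, 6.33 and 6.18 in placebo and 6.63, 6.68 and 6.83 in NM-101 (limma adjusted p = 0.0881). Its ligand gene Bdnf had 3.43, 3.37 and 3.41 against 3.78, 3.70 and 3.73 (limma adjusted p = 0.182). Receptor and ligand were both separate between the groups, and neither passed the threshold.

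Fam107a (chromosome 14) encodes an actin-binding protein induced by stress and glucocorticoids. It stood at 8.07, 7.65 and 7.79 in placebo and at 8.69, 8.70 and 8.65 in NM-101. The NM-101 values nearly coincided and lay above all placebo values, by 0.84 ± 0.11 (SE; 1.80-fold; limma adjusted p = 0.0439). Of 19 tested glucocorticoid-induced genes 4 were higher without overlap, namely Mt2, Fam107a, Mt1 and the sulfotransferase gene Sult1a1, and 2 were lower, Ddit4 and Hif3a. These were 21.1% and 10.5% of the list, beside 13.6% and 5.98% of all genes. The list's median was 0.18, and it was 0.28 without TG placebo replicate 1 and -0.28 against that replicate alone.

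G protein gamma subunits anchor the beta-gamma dimer of trimeric G proteins at the membrane. Gng10 had 5.97, 5.86 and 5.93 in placebo and 6.48, 6.64 and 6.49 in NM-101 (difference 0.62 ± 0.09, SE; limma adjusted p = 0.0486). Gng5 (0.41), Gngt2 (0.57) and Gng7 (0.23) were also higher without overlap, 4 of 10 tested members in all, with a median of 0.27. Gng12 overlapped.

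Of 92 families with at least 8 tested members, the 6 with the highest medians were ribosomal near-copies (0.61), cytoplasmic ribosomal proteins (0.47), histones (0.33), small nucleolar RNAs (0.31), cytochrome c oxidase subunits (0.29) and the gamma subunits. Among 80 ribosomal protein genes 75 were higher without overlap. That is 93.8%, beside 13.6% of all genes and 54.5% of those with a mean level of 8 or more. Near-copies and pseudogenes such as Rpl14-ps1, Rpl34-ps1 and Rps27rt share sequence with other genes, and how reads were divided among them is uncertain. After the GC and length correction the near-copy median was -0.02, the ribosomal median 0.30, the histone median 0.13 and the cytochrome c oxidase median 0.02. Quantile normalization gave a ribosomal median of 0.18 and a cytochrome c oxidase median of 0.07. For cytochrome c oxidase the correction thus left a median near 0. The near-copy median of -0.02 leaves out members without GC or length values, among them Rpl34-ps1. It thus does not cover the same genes as the 0.61. Of the called near-copies with a value, Rpl14-ps1 went from 0.90 to 0.66, Rps27rt from 0.94 to 0.49 and Rps27l from 0.74 to 0.36.

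Cytochrome c oxidase is the terminal enzyme of the respiratory chain, and 10 of its 16 tested subunit and relative genes were higher without overlap. That is 62.5%, beside 13.6% of all genes. The median level of these genes lay between 7.86 and 8.34 in the 6 libraries. Of all genes with a mean level of 6 to 8, 28.5% were higher, and of those at 8 or more, 54.5%. Cox6c had 10.07, 9.97 and 10.23 in placebo and 10.49, 10.69 and 10.73 in NM-101 (limma adjusted p = 0.0881). Histone genes gave 4 of 20 higher, or 20.0% beside 13.6% of all genes. Among them was H4c8, with 2.23, 1.90 and 1.69 against 3.61, 2.94 and 4.00. Its difference of 1.58 ± 0.27 (SE) had a limma adjusted p of 0.0823. Replication-dependent histone transcripts such as that of H4c8 normally lack a poly(A) tail, whereas H2az1 and H2az2 encode variant histones with ordinary polyadenylated transcripts; both were also separate, by 0.25 and 0.35.

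Small nucleolar RNAs, which guide modification of ribosomal RNA, jumped between 0 and high values in single libraries. Snord15a was listed at 0 in TG placebo replicate 1, at 3.45 and 3.61 in the other placebo libraries and at 0 in all NM-101 libraries. Snora31 was above 0 in 1 library, at 7.26 in TG NM-101 replicate 2. The family's median of 0.31 was 1.17 without TG placebo replicate 3 and turned negative, between -0.75 and -0.11, without any one of the other 5 libraries. It was -0.33 after the GC and length correction, so the family had no steady sign.

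**Figure D3:**
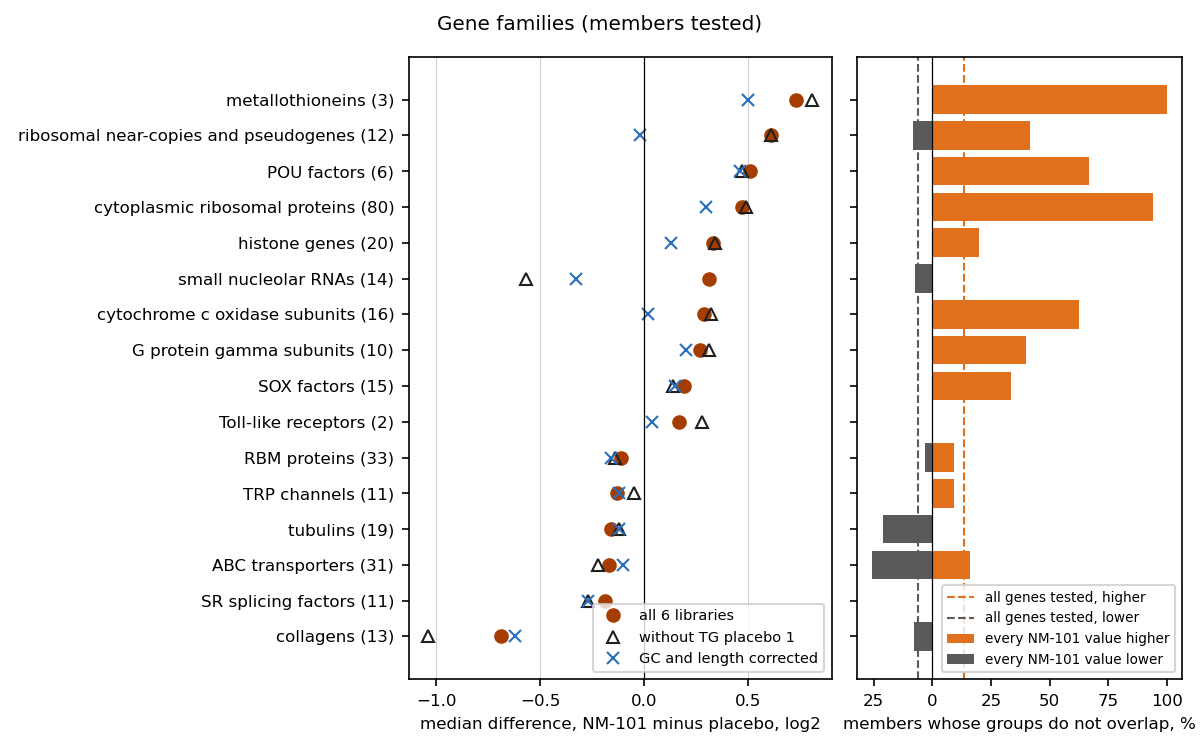
Left, median difference of each family described, with all 6 libraries, without TG placebo replicate 1 and after the GC and length correction. The corrected medians leave out members without GC or length values. Right, percent of tested members higher or lower in every NM-101 library, with dashed lines at the 13.6% and 5.98% of all genes; the metallothionein and POU bars rest on 3 and 6 genes.

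At the other end, the 6 lowest family medians were those of collagens (-0.69), SR splicing factors (-0.19), ABC transporters (-0.17), tubulins (-0.16), TRP channels (-0.13) and RBM proteins (-0.11). No member of these 6 families was called. Collagens are the fibrous proteins of extracellular matrix, made in brain mostly by vessels and meninges. Col5a1 had 0.36, 1.98 and 2.33 in placebo and 0.43, 0.46 and 0.66 in NM-101. TG placebo replicate 1 thus lay with the NM-101 libraries, and 1 of 13 collagens, Col9a2, was lower without overlap. Against that replicate alone the collagen median was 0.16, and without it -1.04. The TRP channel median was -0.05 without that replicate. Against it alone the medians of SR factors, ABC transporters, TRP channels and RBM proteins did not exceed 0.02 in size.

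Single RNA-processing genes had the layout of Col5a1. Rbm5, a splicing regulator, had 4.29, 5.37 and 5.55 in placebo and 4.49, 4.17 and 4.14 in NM-101, and Srsf11 had 4.36, 5.37 and 5.50 against 4.61, 4.56 and 4.45. In both the first placebo library lay within or below the NM-101 range. Other members did not share it: Rbm7 was higher in every NM-101 library, with 4.28, 4.39 and 4.33 against 4.49, 4.78 and 4.85 (limma adjusted p = 0.199). Of 33 RBM proteins 3 were higher and 1 lower without overlap (9.09% and 3.03%, beside 13.6% and 5.98% of all genes).

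The nuclear-retained RNAs had a median of -0.37, which was -0.79 without TG placebo replicate 1, 0.35 against that replicate alone and -0.87 after the GC and length correction. Of 12 tested members 1 was higher and 1 lower without overlap. Pantr1, a long noncoding RNA, was the higher one, with 5.72, 6.36 and 6.39 against 6.91, 6.64 and 6.87. Neat1, the scaffold RNA of paraspeckles, was the lower one, with 4.02, 4.62 and 5.02 against 4.00, 3.26 and 3.19. The Neat1 difference of -1.07 was -1.34 without TG placebo replicate 1 and -0.53 against it alone. The highest NM-101 value lay just under the lowest placebo value.

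Tubulins differed less with that replicate, with a median of -0.12 without it. Tubb2a, a neuronal beta-tubulin, had 8.10, 8.18 and 8.17 in placebo and 7.75, 7.97 and 7.62 in NM-101 (limma adjusted p = 0.171). Tuba1a, Tuba1c and Tubb4a were also lower in every NM-101 library. With Tubb2a that made 4 of 19 tested members (21.1%, beside 5.98% of all genes), and none was higher. The Tuba1c difference of -0.78 was -0.41 without that replicate. Of 31 ABC transporters 8 were lower and 5 higher without overlap (25.8% and 16.1%, beside 5.98% and 13.6% of all genes). Abca1, the cholesterol exporter of the plasma membrane, was higher (2.34, 2.40 and 2.24 against 2.59, 2.69 and 2.83), and Abcc10, a drug-resistance transporter, was lower (0.95, 1.42 and 1.61 against 0.92, 0.64 and 0.65). Neither passed the threshold (limma adjusted p of 0.252 and 0.247).

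Among protein-coding genes with a mean of at least 3, those with the 12 largest positive separated differences lay between 0.82 and 1.25, and 5 of them were called. Dok6, an adaptor of the Ret receptor, had 4.83, 4.55 and 4.15 in placebo and 5.86, 5.39 and 6.04 in NM-101. Its difference of 1.25 ± 0.21 (SE) missed the threshold (limma adjusted p = 0.0823). Itpr1, the calcium release channel abundant in Purkinje and hippocampal neurons, had 5.22, 5.25 and 4.90 against 5.91, 5.78 and 6.28 (limma adjusted p = 0.0811). The symbol Cdr1 had 5.92, 5.03 and 5.51 against 6.44, 6.42 and 7.04, and whether its reads come from the circular antisense RNA of that locus was not examined. Rarres2, which encodes the secreted protein chemerin, had 4.01, 2.87 and 3.34 against 4.80, 4.28 and 4.24 (limma adjusted p = 0.206). Its difference of 1.04 was 1.34 without TG placebo replicate 1 and 0.43 against it alone.

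The 12 largest negative separated differences, Lars2 aside, lay between -0.96 and -0.66. Car12, a membrane carbonic anhydrase, had 3.90, 3.76 and 3.83 in placebo and 2.86, 3.18 and 2.58 in NM-101. All NM-101 values were at least 0.5 below the placebo ones, yet the gene missed the threshold (difference -0.96 ± 0.16, SE; limma adjusted p = 0.072). Igfbp7, a secreted protein of vessels, had 3.85, 3.70 and 3.89 against 3.37, 2.69 and 3.02 (limma adjusted p = 0.105). Tspan33, a tetraspanin, had 4.49, 4.32 and 4.40 against 3.69, 3.95 and 3.49 (limma adjusted p = 0.0866). In these 3 genes TG placebo replicate 1 lay with the other placebo libraries.

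Others of the 12 followed that library. Rgl2, an activator of Ral GTPases, had 2.75, 3.79 and 3.88 against 2.65, 2.63 and 2.53, and Atxn2l, a stress granule protein gene, had 4.03, 4.89 and 4.98 against 4.00, 3.80 and 3.94. Their differences from TG placebo replicate 1 alone were -0.15 and -0.11, and without it -1.23 and -1.02.

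The 4 genes called lower were listed at 0 in all 3 NM-101 libraries, so no fold change is given. Lars2, the mitochondrial leucyl-tRNA synthetase gene, stood at 12.74, 10.12 and 11.34 in placebo. There the median level of the aminoacyl-tRNA synthetase genes lay between 3.56 and 3.74. Zc3h7a, a zinc finger gene, had 2.72, 3.56 and 3.68, Cmss1 had 2.87, 2.90 and 3.34, and the small nuclear RNA Rnu12 of the minor spliceosome had 3.02, 3.36 and 3.51. Without counts, such a 0 may also mean that no estimate was made. Among all genes listed, 32 were at 0 in all NM-101 and above 0 in all placebo libraries, and these 4 are the ones among them that passed the filter. The reverse pattern was found for 16 genes, none above 0.61 in any library, so none of them could pass the filter. The filter thus let this pattern through in 1 direction only.

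Neuron types were read from marker lists of 17 kinds with at least 3 tested members. The hippocampal CA list had the highest median, 0.49, and between 0.37 and 0.59 with any one library left out. CA neurons are the pyramidal cells of the hippocampus proper. Of 11 tested members 5 were higher without overlap (Pou3f1, Man1a, Spink8, Itpka and Fibcd1) and 1 lower (Iyd). The shares were 45.5% and 9.09%, beside 13.6% and 5.98% of all genes. Spink8, a protease inhibitor gene that marks CA1, had 5.43, 5.06 and 4.55 in placebo and 5.88, 6.21 and 5.96 in NM-101 (limma adjusted p = 0.11). Man1a, a mannosidase, had 3.04, 3.16 and 2.89 against 3.84, 3.52 and 3.90 (limma adjusted p = 0.0866), and Itpka, a kinase of dendritic spines, had 7.18, 7.12 and 6.94 against 7.48, 7.53 and 7.41. Pou3f1 alone of these was called.

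The dentate granule list, from the adjoining part of the hippocampus, had a median of -0.15, or -0.23 without TG placebo replicate 1, with 0 of 11 members separated. C1ql2, a synaptic organizer of granule cells, had 5.15, 5.60 and 5.85 against 5.10, 4.85 and 5.23. Those groups overlapped through TG placebo replicate 1. The difference between the CA and dentate lists was not tested.

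Cortical lists lay near the median of all genes. The shared excitatory list had a median of 0.05, the upper-layer list 0.03, the layer 6 list 0.12 and the layer 5 list 0.16. Without TG placebo replicate 1 the shared median was -0.04 and the upper-layer median -0.07. Slc17a7 had 9.00, 8.91 and 8.89 in placebo and 8.72, 8.97 and 8.83 in NM-101, with overlapping groups. Camk2a, a kinase gene of excitatory synapses, was the 1 of 12 shared markers that separated, with 9.97, 9.78 and 9.68 against 10.22, 10.22 and 10.27 (limma adjusted p = 0.113). Its difference of 0.43 was 0.01 after quantile normalization.

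Inhibitory neuron markers were mixed. Gad1, the main enzyme of GABA synthesis, overlapped, with 6.16, 6.48 and 6.44 against 6.35, 6.38 and 6.49. Gad2 was higher without overlap by 0.23 and Slc32a1, the vesicular GABA transporter, lower by a difference of -0.21. Pvalb, the calcium buffer of fast-spiking interneurons, had 5.71, 5.47 and 5.50 in placebo and 5.89, 6.16 and 6.00 in NM-101 (limma adjusted p = 0.125). Crh was also higher, and the other 13 tested interneuron genes overlapped; the interneuron median of 0.21 was -0.05 without TG placebo replicate 1.

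Striatal lists showed no common direction. Of 16 shared markers of striatal projection neurons 4 were higher without overlap and 1 lower, with a median of 0.09 that was 0.17 without TG placebo replicate 1. Adcy5, the striatal adenylyl cyclase, had 4.22, 4.50 and 4.49 against 4.87, 4.74 and 4.97, whereas Actn2, an actin crosslinker, had 2.64, 2.95 and 2.85 against 2.16, 2.27 and 2.16. Neither passed the threshold (limma adjusted p of 0.137 and 0.108). Drd2, the dopamine receptor of the indirect pathway, lay under the filter at 0.77 to 0.86 in placebo and 0.69 to 0.84 in NM-101. Drd1 of the direct pathway was also under it, at 0.48 in TG placebo replicate 1 and 0.78 to 1.29 in the other 5 libraries. Th, the enzyme that makes dopamine, ranged from 0.56 to 1.05, so 4 of 13 dopaminergic markers could be tested and none separated.

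The thalamic list had the lowest median, -0.36, and 0 of its 10 members separated. Tcf7l2, a thalamic transcription factor, had 3.47, 1.63 and 1.68 in placebo and 1.76, 1.79 and 1.49 in NM-101, so 1 placebo library set the difference. Without it the list's median was 0.12. Itpr1 was the 1 of 8 Purkinje markers that was separate, Pax6 the 1 of 6 cerebellar granule markers, and Crh and Hdc the 2 of 8 hypothalamic ones.

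**Figure D4:**
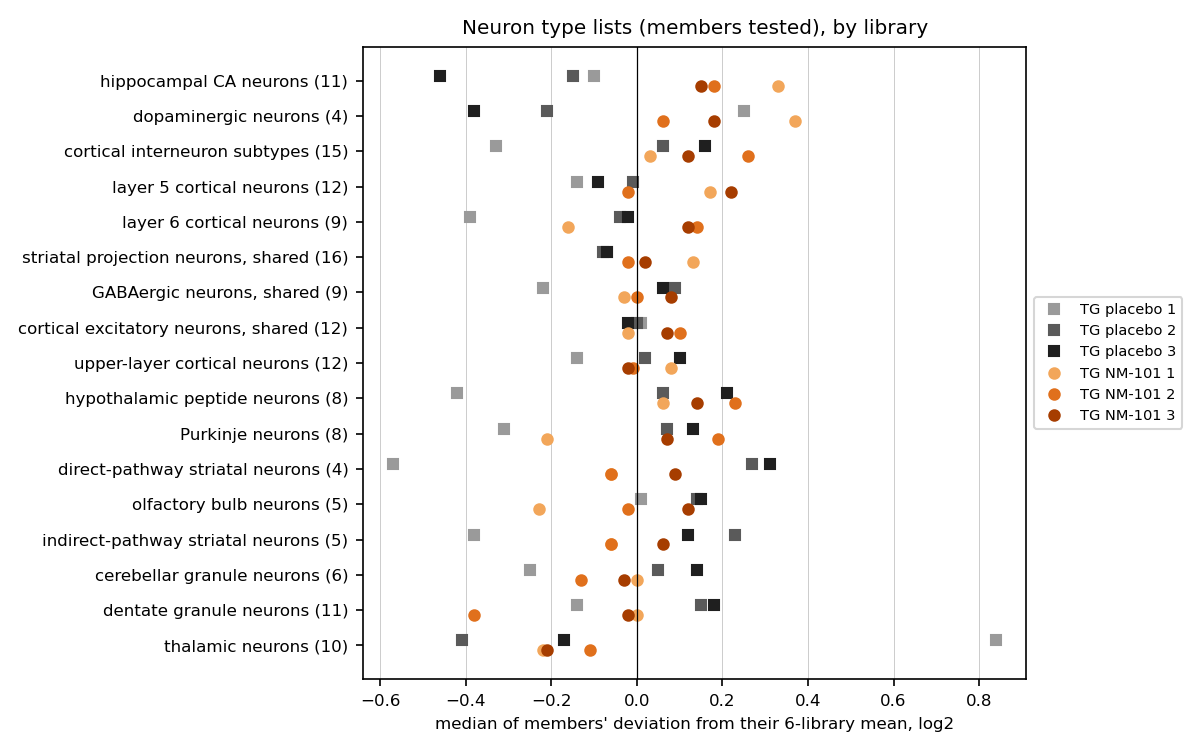
Median deviation of each neuron type list from its members' 6-library means, by library, on the log2 scale. TG placebo replicate 1 is the lowest placebo square in most lists and lies far to the right, at 0.84, in the thalamic list. In the hippocampal CA list and, by less, in the shared striatal list, all 3 NM-101 circles lie above all 3 placebo squares.

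Other cell types gave these values beside the neuron lists. Endothelial genes had a median of -0.29, which was -0.39 without TG placebo replicate 1 and -0.04 against it alone. Of 15 tested, 3 were lower without overlap, Ly6a, Slco1a4 and Abcb1a (20.0%, beside 5.98% of all genes), and none was higher. Slco1a4, an organic anion transporter of brain endothelium, had 3.03, 3.31 and 3.47 against 2.80, 2.86 and 2.77 (limma adjusted p = 0.188). Astrocyte and microglia lists had medians of 0.37 and 0.31. In them 12 and 9 of 20 members were higher without overlap and none lower, beside 13.6% and 5.98% of all genes. The astrocyte median was 0.24 after quantile normalization and 0.34 after the GC and length correction. The microglia median was 0.23 and 0.21 under the same settings. Ependymal genes had a median of 0.67, but 1.19 without TG placebo replicate 1 and -0.60 against it alone. Choroid plexus genes had -0.16, which was 0.98 without that replicate. The part of tissue composition in the neuronal values was not tested.

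Among genes of the pathway that NM-101 may address, Tlr1, Tlr2 and Tlr6 were low and Myd88 overlapped. Tlr2 lay at 0.54, 0.22 and 0.34 in placebo and 0.59, 0.51 and 0.70 in NM-101, under the filter, with overlapping groups. Tlr1 did not exceed 0.31 and Tlr6 did not exceed 0.38 in any library. Myd88 had 1.73, 1.92 and 1.63 against 1.95, 2.00 and 1.51 (difference 0.06 ± 0.18, SE; limma adjusted p = 0.90). The 2 tested Toll-like receptor genes, Tlr3 and Tlr7, overlapped.

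Of 19 tested genes of Toll-like receptor 2 signalling 2 were higher and 2 lower without overlap, with a median of 0.01, against 13.6% and 5.98% of all genes. Nfkbia, the inhibitor that NF-kB induces in feedback, had 5.11, 4.54 and 4.56 in placebo and 4.19, 4.51 and 4.33 in NM-101 (limma adjusted p = 0.317). Its difference of -0.39 was -0.21 without TG placebo replicate 1 and -0.77 against it alone. The highest NM-101 value lay just under the lowest placebo value. Rela, a subunit of NF-kB, was higher by 0.17, and the kinase adaptors Tab1 and Tab2 differed by -0.15 and 0.13. None of these passed the threshold.

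Of 20 Parkinson disease genes 4 were higher without overlap, Sncg, Scarb2, Dnajc6 and Gpnmb, and 1 lower, Tmem175, or 20.0% and 5.00% beside 13.6% and 5.98% of all genes. Sncg, gamma-synuclein, had 2.96, 2.32 and 2.46 against 3.33, 3.25 and 3.19, and Scarb2, the lysosomal receptor of glucocerebrosidase, had 4.47, 4.46 and 4.17 against 4.87, 4.59 and 5.20. Tmem175, a lysosomal ion channel, had 3.03, 3.28 and 3.42 against 2.88, 2.95 and 2.67. Their limma adjusted p-values were 0.142, 0.203 and 0.25. The Sncg difference of 0.68 was 0.87 without TG placebo replicate 1 and 0.30 against it alone. Mbp overlapped, with 11.62, 9.98 and 9.93 against 11.25, 10.36 and 10.85. Its difference of 0.31 was 0.87 without TG placebo replicate 1 and -0.80 against it alone.

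Isoform use was compared as the balance of a RefSeq transcript against the other transcripts of its gene, the log2 ratio of (FPKM + 1). Of 4309 balances in 2375 genes none was called (0%), with a smallest limma adjusted p of 0.0921 and 254 at an unadjusted p under 0.05. Balances separated upward for 245 (5.69%) and downward for 240 (5.57%), in near-equal numbers. QuantSeq reads the 3′ end of transcripts, and 3063 balances were of transcripts whose annotated 3′ end lay within 100 bases of that of another transcript of the gene. Of these 11.2% separated, against 11.5% of the 1109 with a farther 3′ end.

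The balances of Ak4 row NM_009647 and Acsl4 row NM_001033600 had the smallest p-values (limma adjusted p = 0.0921 for both), and in both genes deposited rows traded places. Acsl4 encodes an enzyme that activates arachidonic acid for phospholipids. Its row NM_001033600 stood at 3.50, 2.61 and 3.40 in placebo and at 0.02, 0.05 and 0.01 in NM-101, while NM_019477, whose balance was not among the 8 with the smallest p (limma adjusted p = 0.334), stood at 0.01, 0.50 and 0.50 and at 2.25, 3.28 and 2.47. One row was near 0 in each group. The annotated 3′ ends of the Acsl4 rows lie 0 bases apart, and the gene's sum was 4.26, 4.18 and 4.22 against 4.32, 4.46 and 4.36.

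Ak4, a mitochondrial adenylate kinase gene, had the same form. NM_009647 stood at 0.01, 0.34 and 0.03 in placebo and at 2.91, 3.21 and 3.07 in NM-101, and NM_001177605 at 3.80, 3.67 and 3.48 and at 2.13, 2.47 and 2.37. The sums of the gene overlapped (4.44, 4.13 and 3.98 against 4.29, 4.12 and 3.91). The 3′ ends of both rows again lie 0 bases from another row. Endov, Nfat5, Cox18, Inpp5d and Cybc1 supply the remaining 5 of the 8 balances with the smallest p, each with limma adjusted p = 0.302. Cox18 row NM_001033310 had 2.01, 1.92 and 1.62 in placebo and was listed at 0 in every NM-101 library, and Endov row NM_001164636 was listed at 0 in every placebo library and had 1.58, 2.06 and 2.50 in NM-101. How the deposited values share reads between rows with a common 3′ end is not given in the sources used here.

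**Figure D5:**
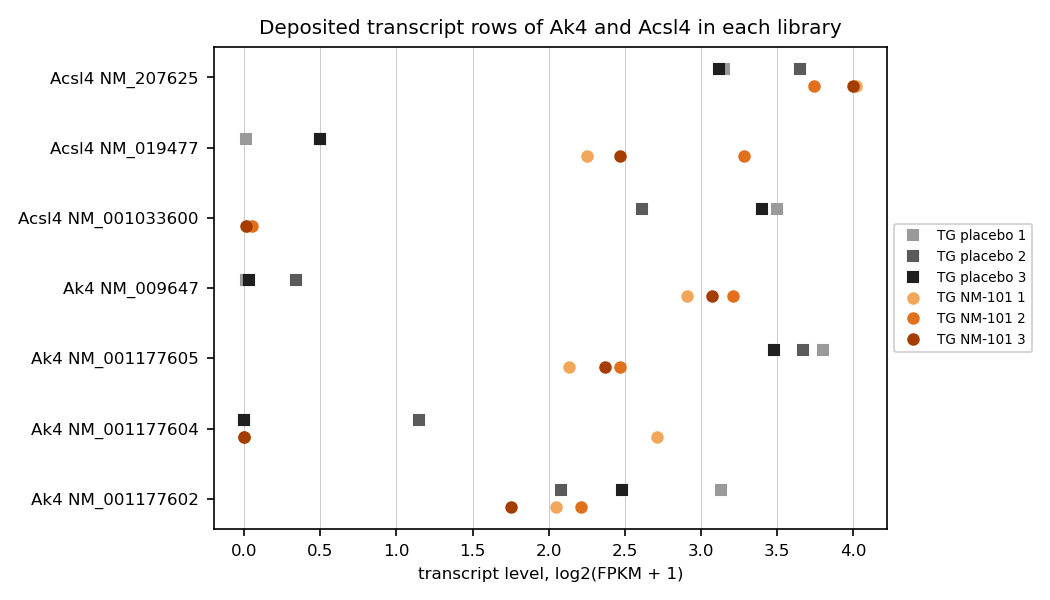
Level of each deposited transcript row of Ak4 and Acsl4 in each library, on the log2(FPKM + 1) scale. Acsl4 NM_001033600 is at 2.61 or more in placebo and at 0.05 or less in NM-101, and NM_019477 and Ak4 NM_009647 have the opposite order.

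Among Mbp rows, the balance of NM_001025255 differed by 0.22 ± 0.32 (SE) and that of the most abundant row, NM_001025259, by -0.23 ± 0.26 (SE). Both were separate between the groups and neither passed the threshold (limma adjusted p of 0.961 and 0.955).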

How the data were processed

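The authors deposited 1 table of 33299 RefSeq transcripts, from libraries aligned with Bowtie2 to mm10 per the submitters' processing notes. No source used here names the counting or normalization program. Per the labels' protocols, RNA came from a kit for fixed tissue and libraries from a QuantSeq kit. The 3 WT columns hold counts as deposited and were used only to read the unit. The 6 TG columns hold deposited log2 values. Over 15277 transcripts their linear values had a log2 slope of 0.965 on WT CPM and of -0.863 on transcript length, so they were read as log2(FPKM + 1); neither labels nor headers state this, and depth is unknown. RefSeq GRCm38.p6 named 32394 transcripts, giving 23798 genes. Tests used limma 3.58.1 in R 4.3.3 with trend and robust shrinkage, pseudocount 1 and a minimum mean of 1. A check on simulated data left out genes at 0 in any sample and drew errors independently. It thus does not cover the 4 genes at 0 under NM-101 or a library that stands apart, as TG placebo replicate 1 did. Lengths, GC content and 3′ ends came from GENCODE M21, for 12557 genes. Corrected medians of families and lists leave out members without these values.

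Families are symbol patterns and lists are named genes; both, and the comparison itself, were chosen with earlier results of these data known, and 2 patterns (ribosomal proteins, Na/K-ATPase) were corrected after values were seen. Named genes are every called gene, the 12 largest separated differences each way among protein-coding genes with a mean of at least 3, up to 4 members of each list or family by smallest p, a fixed set with Tlr2 and Mbp, and the 8 isoform balances with the smallest p. Some genes that this rule names are not reported here. Further separated members of a list were named after their values were seen. Alternatives covered pseudocounts, filters, scaling, the variance model, weights, single-row genes, left-out libraries, the replicate number and, added after seeing the data, a GC and length correction.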

Additional observations from a re-analysis of the deposited data

How the results depend on the processing

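Against 13 higher and 4 lower calls, pseudocounts of 0.1 and 0.5 gave the same 17 genes. Higher calls numbered 0 with no filter on low values (1491 at an unadjusted p under 0.05), 43 with a mean of at least 3, 1 with median-ratio scaling, 3 with quantile normalization, 0 without trend and robust shrinkage (1230 unadjusted) and 3 after the GC and length correction. Lower calls numbered 2 with a mean of at least 3. Sample weights gave 2470 higher and 1770 lower. Without genes at 0 in any sample limma called 0 genes higher and 0 lower, with 1362 and 532 at an unadjusted p under 0.05. Leaving out 1 library gave 0 to 1231 higher and 2 to 1038 lower calls, and 2041 to 3573 separated higher and 972 to 2929 separated lower genes, the highest of each without TG placebo replicate 1; fewer values a group also make separation easier. Separated lower genes numbered 406 with a mean of at least 3 and 505 among single-row genes, where fewer genes were tested. Under each alternative run 0 isoform balances were called, with 183 to 355 at an unadjusted p under 0.05. Taking the replicate number as a replicate block gave 0 higher and 3 lower calls (1326 higher unadjusted). Deviations of same-numbered samples correlated at 0.04, -0.03 and -0.02, and those of other pairs between -0.06 and 0.09. The labels do not say what the replicate numbers stand for, and these correlations cannot settle whether they pair the samples. Of 53 family and list medians, 50 stayed within the spread between replicates without TG placebo replicate 1, and 7 took the other sign. The causes of these changes were not tested. The depth of these libraries is unknown, which limits what a value near 0 can show.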
